A study of Drosophila melanogaster with 3 samples.

Results

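The cells described here carried transcripts of elav and fne, the genes of a pair of neuronal RNA-binding proteins, in droplet-based single-cell libraries made from female and male Drosophila melanogaster embryos. A cell was selected if it had at least 1000 unique molecular identifiers (UMIs, each counting 1 captured RNA molecule) and 500 genes, UMIs of at most 2 of 7 germline genes (vas, nos, pgc, zpg, aub, CG17650 and CG14545), at least 3 summed UMIs of elav and fne, and none of the glial gene repo. The rule selected 3029 of the 10386 female cells and 380 of the 6756 male cells, which is 3409 of 17142 cells in the sexed libraries and of 20952 in the series. They are called elav/fne cells below, because neuronal markers outside the rule were found in only some of them, so that early neurons would name the set only in part.

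The study profiled early germ cells of embryos in 3 libraries, each the only library of its group. The female and the male library came from embryos carrying both Sxl-GFP and vas-GFP at 5 to 8 hours, and were made with version 3 of the 10x Genomics 3′ kit. The other library, unsexed, came from vas-GFP embryos at 0 to 8 hours and was made with version 2 of the kit. The dissociated cells of whole embryos were sorted for GFP, so cells outside the germline were present only as far as they passed that sort. The labels give germ cells as the source, yet 9007 of the 10275 female and 1995 of the 6687 male cells past the UMI and gene minimum had UMIs of at most 2 germline genes. With 1 library a group, no difference between female and male has a replicate check: sex, embryo collection, sort and library cannot be told apart, and every interval given below is a 95% interval that covers counting error only.

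In the fly embryo, neuroblasts delaminate from the neuroectoderm under proneural genes, divide asymmetrically and produce ganglion mother cells, which divide once more into neurons or glia. ELAV-family proteins are made as neurons differentiate, and steer alternative splicing and polyadenylation of neuronal transcripts. The zinc-finger gene nerfin-1 is transcribed in precursors and young neurons and is needed for early axon guidance, whereas genes of synaptic release and electrical activity are switched on later, as the axons grow and wire up.

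The selected cells held a median of 10722 UMIs in the female library, against 5398 in the male one. They made up 33.6% (32.7 to 34.6) of the 9007 female and 19.05% (17.3 to 20.8) of the 1995 male cells with UMIs of at most 2 germline genes. With every cell thinned to 3000 UMIs the shares were 15.1% (1398 of 9268 cells) and 7.38% (232 of 3145), over other cells than before, since the germline limit was read on the thinned UMIs and shallower cells dropped out. The female and male shares were near each other in 2 other settings. With at least 1000 elav and fne UMIs per 1000000 UMIs of the cell, a limit added after the data were seen, they were 13.1% and 13.2%. In a second, deeper set of deposited count tables they were 37.2% and 35.2%. The female and male libraries shared 17 cell barcodes, of which 2 belonged to female elav/fne cells and none to male ones. No UMI of the 38 listed mitochondrial genes was counted in either sexed library, so RNA quality could not be read from them.

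How much elav and fne the cells carried differed between the libraries, as a description of the values that chose them. In the female library 681 cells had exactly 3 UMIs and 404 had 4, together 35.8% of the selected cells, and 725 had 20 or more, up to 254. In the male library 72 cells had 3 UMIs, 41 had 4, and 52 had 20 or more, up to 97. Just outside the threshold, 1131 female and 122 male cells had 2 UMIs, and 180 female and 11 male cells that met the threshold were left out for a repo UMI. The summed level per cell had a median of 646 CPM (UMIs of the genes scaled to 1000000 UMIs of the cell) in the female cells and 1711 CPM in the male cells. Germ-gene cells, with UMIs of 3 or more germline genes, should lack both transcripts, yet their summed level was 217 CPM in the female library and 75.4 CPM in the male library. At the median depth of the selected cells that level is worth 2.32 UMIs for a female and 0.407 for a male cell, so a female cell at 3 or 4 UMIs lies near the mean level of the germ-gene cells, and a male cell does not. Of the germ-gene cells themselves, 532 of 1268 female and 191 of 4692 male cells had at least 3 summed UMIs of elav and fne and no repo UMI. The source of these UMIs was not tested.

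**Figure D1:**
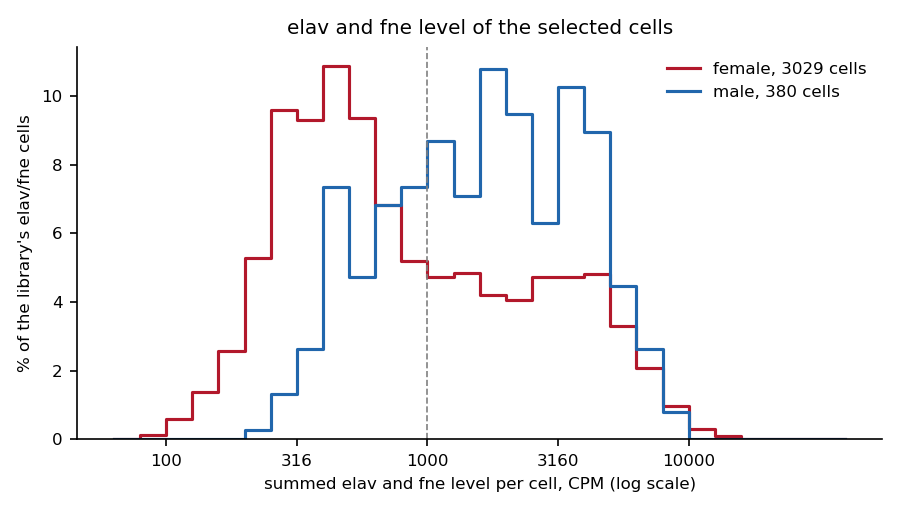
Distribution of the summed elav and fne level per selected cell (x axis, CPM of the cell's own UMIs on a log scale), as the percentage of each library's elav/fne cells (y axis); the dashed line marks 1000 CPM. Most of the 3029 female cells lie left of the line, and 69.5% of the 380 male cells lie right of it.

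Markers that the rule did not use showed the same mixture. A nerfin-1 UMI was found in 5.91% of the female cells under 500 CPM of elav and fne, at a median depth of 13117 UMIs, in 20% of those between 500 and 1000, in 64.6% between 1000 and 2000, and in 91.4% at 2000 or more, where the median depth was 7622.5. In the male cells the shares were 15.9%, 36.1%, 60.8% and 82.1%. Germ-gene cells had a nerfin-1 UMI in 6.31% of female cells, at a median of 18971.5 UMIs, and in 0.81% of male cells, at 7825. The share in the lowest female class was below that in female germ-gene cells and above the 1.04% in female somatic cells without elav and fne, whose median was 5423 UMIs, and it is not taken as expression. Mef2, which encodes a muscle transcription factor, ran the other way, with a UMI in 61.3%, 45.0%, 25.8% and 11.9% of the female cells and in 15.9%, 15.3%, 5.88% and 3.70% of the male cells from the lowest to the highest class.

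The 4 classes held 1202, 651, 418 and 758 female cells and 44, 72, 102 and 162 male cells. The nerfin-1 level was 7.57, 62.6, 248 and 680.1 CPM across the female classes and 58.4, 107, 367 and 798 CPM across the male classes, against 1.94 and 1.56 CPM in somatic cells without elav and fne. The level of scrt, a zinc-finger gene that promotes neuronal fate, was 103, 460.3, 1126 and 1828 CPM in the female classes and 247, 553, 1020 and 1590 CPM in the male classes. The homeodomain gene pros, which stops neural precursors from dividing again, had levels of 77.8, 332, 655 and 652 CPM in the female classes and 299.9, 609, 722 and 683 CPM in the male classes, and so levelled off before nerfin-1 did. Transcripts of beat-Ia, which encodes a secreted protein that loosens motor axon bundles, were at 0.729, 4.32, 9.78 and 79.4 CPM in the female and at 0, 0, 17.4 and 89.2 CPM in the male classes. By contrast ttk, whose Tramtrack proteins repress neuronal genes, was at 503, 408, 248 and 152 CPM in the female and at 316, 176, 164 and 90.5 CPM in the male classes. The mesoderm gene twi was at 97.9, 91.1, 26.3 and 10.6 CPM in the female classes and at 37.2, 11.1, 17.4 and 1.37 CPM in the male classes.

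**Figure D2:**
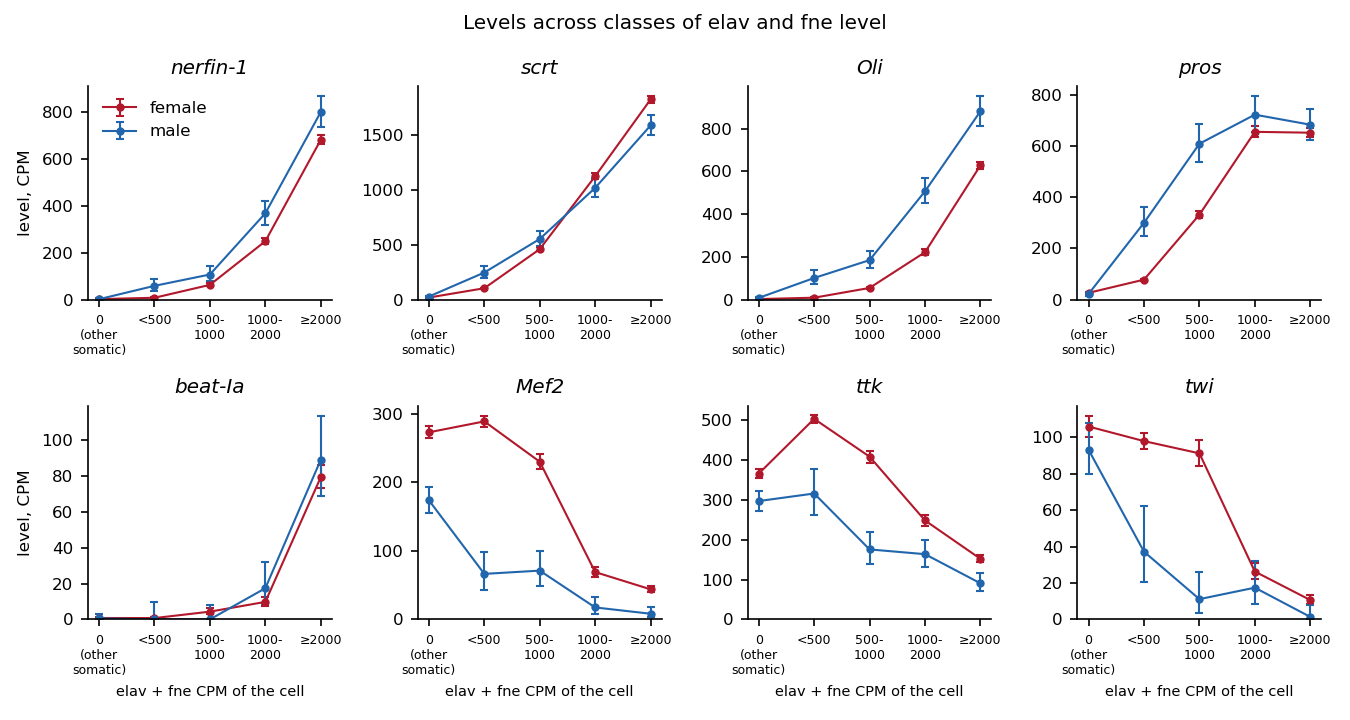
Level of 8 genes in CPM (y axes, linear, from 0) in somatic cells without elav and fne and in the 4 classes of elav/fne cells by their elav and fne level (x axes), female in red and male in blue; bars are 95% Poisson intervals. The levels of nerfin-1, scrt, Oli and beat-Ia are highest in the class at 2000 CPM or more in both libraries, and those of Mef2, ttk and twi are lowest there.

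Because of this mixture the main counts are given for all selected cells and again for elav/fne-rich cells, the 1176 female (38.8%) and 264 male (69.5%) cells at 1000 CPM or more, a limit chosen after the distribution was seen. The limit cuts a continuous range: 289 female and 61 male cells lay between 800 and 1250 CPM. In elav/fne-rich cells elav was at 2396 CPM in the female and 2292 CPM in the male library, and fne at 469 and 486 CPM. The marker list for mesoderm and muscle had all 8 genes detected in the selected cells, at a summed 661 CPM in the female and 127 CPM in the male library, against 922 and 589 CPM in the other somatic cells. In the elav/fne-rich cells that sum was 247 and 49.1 CPM, with bin and tin at 0 in the male library. The sum of 6 haemocyte markers was 131 CPM in female and 290.1 CPM in male selected cells, against 267 and 158 CPM in other somatic cells, and 143 and 327 CPM in elav/fne-rich cells. Of these Hml, NimC1 and He were at 0 in the selected cells of both libraries and in the male other somatic cells, and Pxn was at 0 in the male selected cells. In elav/fne-rich cells gcm, which is among the glial markers too, held 1595 of the 1867 female and 421 of the 426 male UMIs of the haemocyte sum.

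Summed markers of further tissues were higher in the selected cells than in the other somatic cells in part of the lists. The glial and midgut sums rested mostly on few genes. The 6 glial markers, with repo at 0 by the rule, summed to 544 CPM for female and 1089 CPM for male selected cells, against 349 and 368 CPM, and to 845 and 1258 CPM in elav/fne-rich cells. There nrv2 held 8713 of the 11028 female and 1151 of the 1640 male UMIs of the sum, and gcm 1595 and 421. Of 7 measured genes of a longer glial list, only nrv2 was called higher than in other somatic cells, in both sets. In that list moody was lower in both sets, and pnt in elav/fne-rich cells. Cells with at least 2 repo UMIs and UMIs of at most 2 germline genes, whatever their elav and fne UMIs, had a nerfin-1 UMI in 53.0% of 132 female and 62.5% of 8 male cells. The 4 midline markers summed to 246 and 229 CPM against 69.5 and 97.2 CPM. Those of the epidermis (6 genes) were at 1319 and 999.0 CPM against 905 and 908 CPM, those of sensory organs (7 genes) at 739.6 and 532 CPM against 464 and 336 CPM, and those of the midgut (3 genes) at 624 and 513 CPM against 451 and 372 CPM. In elav/fne-rich cells Fas3, also on the adhesion list, held 7531 of the 7818 female and 718 of the 726 male UMIs of the midgut sum. Markers of the trachea were higher in the female cells, at 1009 against 748 CPM, and lower in the male cells, at 377 against 599 CPM. The same held for the amnioserosa, at 322 against 291 CPM and 139 against 270.4 CPM. Salivary gland markers were lower in both libraries. The part of such cells in the results was not tested.

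Summed germline markers, kept low by the rule, were at 35.2 CPM in the female and 76.1 CPM in the male selected cells, against 1271 and 1603 CPM in germ-gene cells. Doublets were not removed, and the part that 2 cells in 1 droplet play in the mixed profiles was not tested. Without the cells of highest doublet score the female share was 31.5% and the male share 19.2%.

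To describe the cells' transcripts beyond the rule, their summed UMIs were compared with those of other somatic cells of the same library, which had no UMI of elav, fne, repo or a germline gene and fewer than 2 of the neuroblast genes dpn, wor and ase. These comprised 2115 female and 610 male cells with medians of 5423 and 2805 UMIs. A gene was called when it differed at least 2-fold in the same direction in both libraries, and the 13 genes that set the classes were left out. Of 4494 genes measured, 244 were higher (5.43%) and 239 lower (5.32%) in elav/fne cells. In elav/fne-rich cells 461 of 4519 were higher (10.2%) and 573 lower (12.7%). Since the cells were chosen by elav and fne, these values describe them and are no test.

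The genes were ranked by the smaller of the female and male differences in log2(CPM + 1), and nerfin-1 ranked first, at 186 CPM in the female cells against 1.94 CPM in other somatic cells and at 405 against 1.56 CPM (3 UMIs) in the male cells (BDGP6 chromosome 3L, 909112 to 912319). Oli, which encodes a basic helix-loop-helix factor of motor neurons, was at 171 against 2.25 CPM in the female library, a ratio of 75.7 (52.6 to 113), and at 495 against 7.80 CPM in the male library, a ratio of 63.4 (38.3 to 114). The level of scrt was 660.2 against 18.3 CPM, 36.1-fold (31.8 to 41.3), in the female cells and 979.8 against 27.6 CPM, 35.5-fold (27.1 to 47.6), in the male cells. The pair-rule gene ftz, which is used again in neuronal fate, was at 40.0 against 0.233 CPM (3 UMIs) and at 84.0 against 0.520 CPM (1 UMI). Hey, a Notch target of newborn neurons, was at 51.9 against 0.699 CPM in the female library, and the male level was 138 CPM against no UMI. The bHLH gene tap was at 53.6 against 0.855 CPM and at 161 against 1.56 CPM. The insb gene was at 387 against 18.1 CPM and at 999.9 against 38.5 CPM. For each of these 7 genes the lower end of the interval lay above 10-fold in either library.

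Axon and cell-surface genes were among the 25 genes ranked highest too. The female and male levels of side, which marks the paths of motor axons, were 88.4 and 127 CPM, against 6.61 and 5.72 CPM in other somatic cells. The axon guidance receptor gene gogo was at 24.8 and 44.6 CPM against 0.855 CPM and no UMI. The giant ankyrin gene Ank2, needed at synapses and along axons, was at 36.0 and 80.3 CPM against 2.95 and 7.28 CPM. The E3 ligase gene hiw, a brake on synapse growth, was at 25.2 and 33.8 CPM against 1.55 CPM and no UMI. Nuclear factors among the 25 included pros, at 323 and 610.3 CPM against 26.2 and 21.8 CPM, and the homeobox genes unpg, at 28.6 and 46.0 CPM against 1.32 and 2.60 CPM, and gsb-n, at 52.7 and 105 CPM against 4.82 and 4.16 CPM. The others were CG8407, CG13928, CG6024, CG6329, lncRNA:CR45388, CG13920, X11Lbeta, CG3408, CG43867, CG8353 and CG5065, of which CG8407 overlaps Prp8 on the opposite strand. At the other end, Osi9, Osi15, Osi18 and Osi20 of the Osiris family of cuticle-secreting epithelia, and CG15887, ranked lowest. Osi15 was at 1.89 CPM in the female cells against 166 CPM in other somatic cells, and at no UMI against 256 CPM in the male library.

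**Figure D3:**
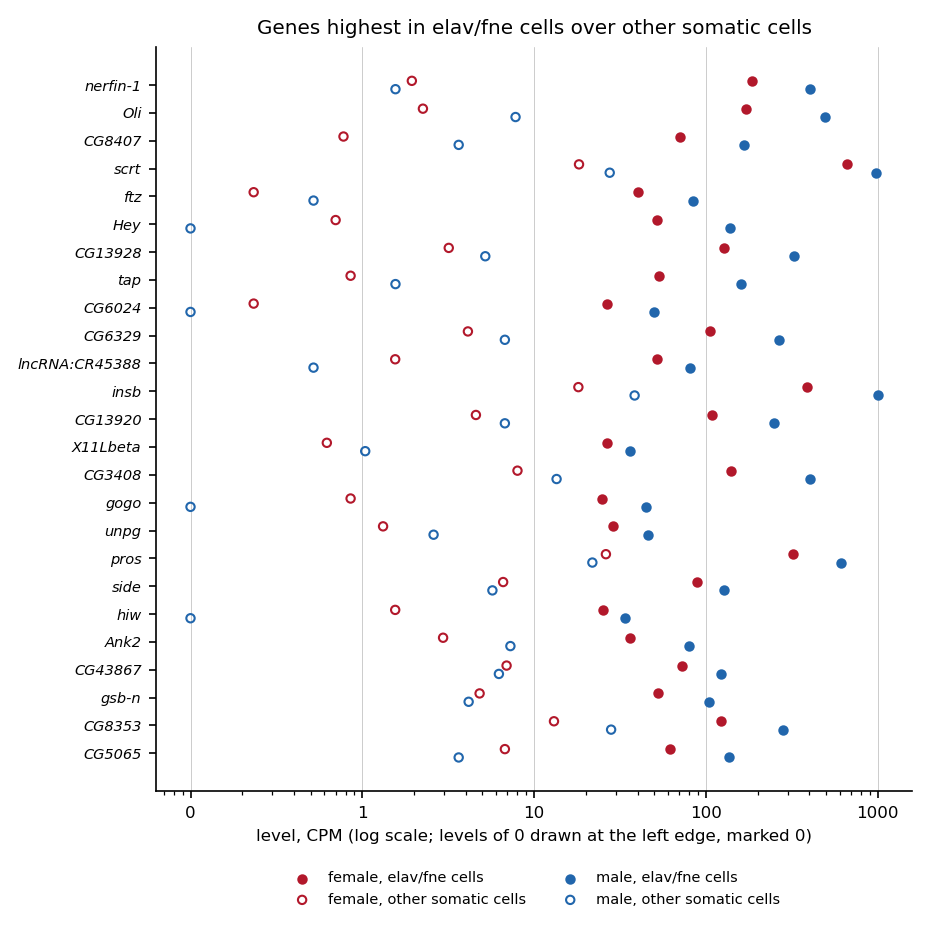
Level in CPM (x axis, log scale, levels of 0 drawn at the left edge) of the 25 genes ranked highest in elav/fne cells (filled) against other somatic cells (open), female in red and male in blue. For each gene both filled points lie to the right of both open points.

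The unsexed library, which the rule and the ranking did not use, held 67 elav/fne cells and 136 other somatic cells under the same rule. Of the 244 genes that were higher in both sexed libraries 167 could be measured there, with at least 20 UMIs, and 143 of these (85.6%) were at least 2-fold higher, against 12.3% of all genes tested. Of the 239 lower genes 111 could be measured and 85 (76.6%) were at least 2-fold lower, against 14.0% of all. For nerfin-1 the unsexed values were 261 CPM (90 UMIs) in elav/fne cells and 6.32 CPM (3 UMIs) in other somatic cells, and for Oli 557 and 14.7 CPM. All 17 of the 25 genes above that could be measured were at least 2-fold higher. Genes scarce in other somatic cells reached the 20 UMIs almost only through the elav/fne cells, as CG13920 did with 116 UMIs against 2. CG8407, with 14 UMIs against none, was left out. The filter thus favoured the direction already seen, which raises the shares for the higher genes, and the 17 genes are no test.

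Transcription factors of neuronal differentiation and identity were often among the higher genes. Of all genes measured, 5.43% were higher and 5.32% lower in elav/fne cells. Of 11 measured neuronal differentiation factors 6 were higher in elav/fne cells (nerfin-1, scrt, pros, lola, zfh2 and jumu) and Pdp1 was lower, with list medians of 1.36 (female) and 1.19 (male) on the log2 scale against 0.09 and 0.09 over all genes. The level of lola, which encodes many zinc-finger isoforms for axon growth, was 1240 CPM in the female and 1750 CPM in the male cells, against 380.2 and 341 CPM. Of 15 measured interneuron and lineage factors 9 were higher and none lower, among them cas, ind, run, gsb, toy and Lim1. In the temporal series, in which neuroblasts pass through hb, Kr, the POU genes nub and pdm2, and cas to give different neurons in turn, 5 of 7 genes were higher. Those 5 were the genes just named, and grh of the same list was not called. The first of them, hb, was at 107 CPM in the female and 199 CPM in the male cells against 13.1 and 21.8 CPM, and cas was at 39.4 and 41.3 CPM against 4.35 and 6.24 CPM. Elav/fne-rich cells, where 10.2% of all genes were higher and 12.7% lower, added onecut, eve, HGTX, ey, vnd, Ptx1 and ham to the higher factors and odd to the lower ones.

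Among 6 measured Hox genes and cofactors Antp alone was called, beside 5.43% of all genes higher and 5.32% lower. It was at 245 CPM in the female and 254 CPM in the male cells against 69.9 and 63.4 CPM. Its level was 495 and 502 CPM in the class at 2000 CPM or more of elav and fne, whereas Ubx was at 212 and 189 CPM in that class against 303 and 209.6 CPM in other somatic cells.

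Of 29 measured axon guidance genes 10 were higher in elav/fne cells and none lower, beside 5.43% of all genes higher, with list medians of 0.80 (female) and 1.01 (male) on the log2 scale against 0.09 and 0.09. Among elav/fne-rich cells 15 of 31 were higher, beside 10.2% of all genes. The Netrin ligand genes NetA and NetB were at 90.4 and 132 CPM in the female cells against 33.7 and 49.7 CPM, and at 95.3 and 136 CPM in the male cells against 26.5 and 23.4 CPM. Their receptor gene fra was at 165 against 75.4 CPM in the female and at 173 against 62.4 CPM in the male library. The leucine-rich repeat receptor gene trn was at 473 against 159 CPM and at 530 against 161 CPM, and the receptor phosphatase gene Ptp99A at 126 against 36.7 CPM and at 159 against 32.8 CPM. Adhesion genes included Nrg, the neuroglian gene, at 542 and 631 CPM against 130.5 and 109.7 CPM, and klg at 74.0 and 154 CPM against 9.09 and 8.32 CPM. In total 6 of 17 measured adhesion genes were higher in elav/fne cells and 7 of 17 in elav/fne-rich cells, where the myoblast genes kirre and sns were lower.

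Of the cytoskeleton and transport list 1 of 13 genes (DAAM, a formin) was higher in elav/fne cells, a share near the 5.43% over all genes, and 5 of 15 were higher in elav/fne-rich cells, beside 10.2%. The tubulin gene betaTub60D of the same list was lower in both sets. Appl, the fly's amyloid precursor protein gene, was at 41.5 CPM in the female elav/fne-rich cells against 0.233 CPM, and at 39.9 CPM in the male cells against no UMI. The gene ena, which encodes an actin regulator of growth cones, was at 426 and 459 CPM against 169.6 and 131 CPM. None of 8 measured synaptic vesicle and active zone genes was called in elav/fne cells, and Vap33 was the 1 called in elav/fne-rich cells. No gene of the list for transmitter synthesis and transport reached the minimum level, and 1 of 30 listed ion channels and receptors did.

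Of 15 measured neuroblast and precursor genes 10 were higher in elav/fne cells, beside 5.43% of all genes, among them mira, which encodes the carrier of pros in dividing neuroblasts, at 244 against 46.6 CPM in the female and 231 against 54.6 CPM in the male library. The other somatic cells were limited to fewer than 2 UMIs of dpn, wor and ase, and the elav/fne cells were not. The classes thus favour this direction, and the count is no test. Of 30 proneural and Notch pathway genes 8 were higher, with spdo, which promotes Notch signalling in one daughter of a division, at 164 and 301 CPM against 21.7 and 32.2 CPM. Of 38 cell cycle genes 5 were higher, namely CycE, E2f1, RnrL, Mcm2 and Mcm3, and the other 33 were not called. In elav/fne-rich cells 7 of 37 were higher, beside 10.2% of all genes, namely Cdk2, dap, E2f1, RnrL, Mcm3, pav and ncd. Of these dap, the gene of a cyclin-dependent kinase inhibitor that ends division, was at 1152 CPM in the female and 1194 CPM in the male library against 381 and 369 CPM. Of 13 ribosome biogenesis genes none was called in elav/fne cells and 7 were lower in elav/fne-rich cells, beside 12.7% of all genes. The growth regulator Myc was at 158 and 85.2 CPM there against 609 and 352 CPM, and the rRNA methylase gene Fib at 144 and 117 CPM against 315 and 346 CPM. All 7 measured haemocyte and mesoderm markers were lower in elav/fne-rich cells, beside the same 12.7%, and srp alone was called in the whole set.

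**Figure D4:**
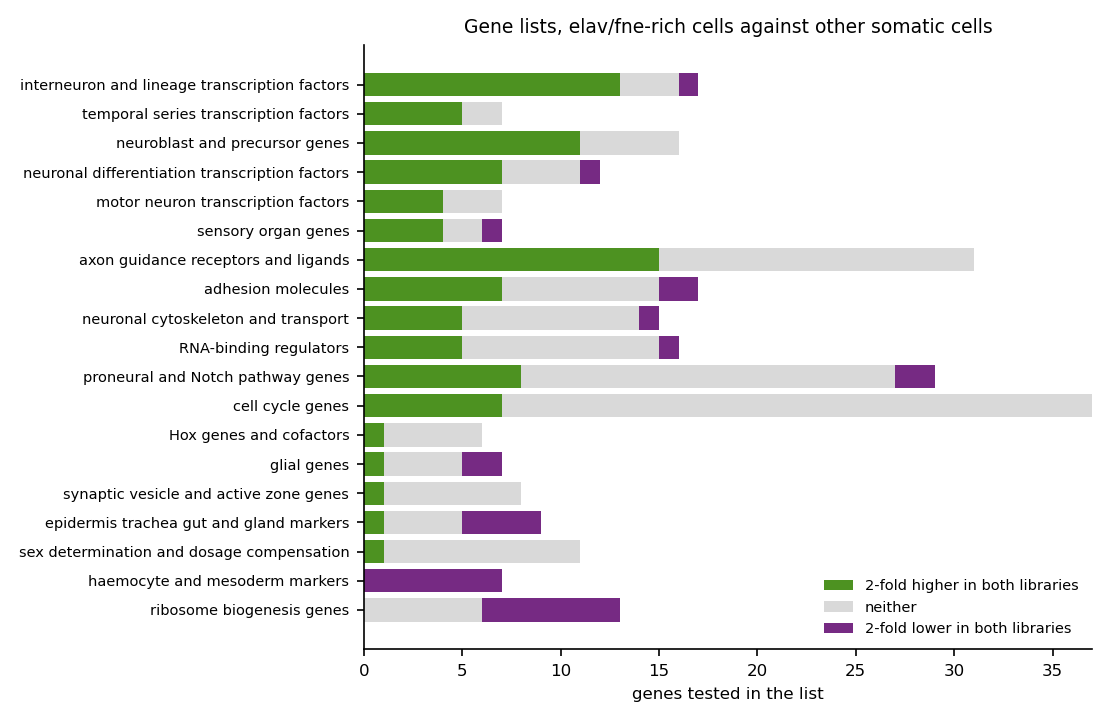
Number of measured genes of each list (x axis) that were at least 2-fold higher (green) or lower (purple) in elav/fne-rich cells than in other somatic cells in both libraries, or neither (grey); lists with 5 or more measured genes are shown. The interneuron, temporal and neuroblast lists have the largest green shares, and the haemocyte and mesoderm list is purple throughout. The limit on dpn, wor and ase in the other somatic cells favours green in the neuroblast list.

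The cells were also compared with the 196 female and 42 male neuroblast-gene cells, a name for their rule only, which had at least 2 summed UMIs of dpn, wor and ase and none of elav, fne or repo. Their medians were 7711 and 3780.5 UMIs. Their 7 neuroblast markers, of which the rule used 3, summed to 654 CPM (female) and 1339 CPM (male), below the 1127 and 1608 CPM of the elav/fne cells and the 1853 and 1768 CPM of the elav/fne-rich cells. Their mesoderm and muscle markers summed to 804 and 376 CPM, and a Mef2 UMI was found in 42.9% of the female and 21.4% of the male ones, against 42.5% and 25.9% of other somatic cells. The part of these markers in the differences was not tested. Against these cells 130 of 4234 genes (3.07%) were higher and 11 (0.26%) lower in elav/fne cells, and 279 (6.76%) and 166 (4.02%) of 4129 in elav/fne-rich cells. None of the 15 measured neuroblast and precursor genes and none of the 38 cell cycle genes was called in the whole set in this comparison, whereas in elav/fne-rich cells insc, brat and the cell cycle gene dap were higher and Brd was lower. Hey was at 51.9 CPM in the female elav/fne cells against no UMI, and at 138 against 5.44 CPM (1 UMI) in the male library. The levels of side were 88.4 and 127 CPM against 5.30 and 10.9 CPM. In elav/fne-rich cells 9 of 29 proneural and Notch pathway genes were lower, all of them from the Enhancer of split and Bearded complexes, whose products answer or tune Notch signalling. The female level of E(spl)m4-BFM was 655 against 2216 CPM and the male level 555 against 1715 CPM. E(spl)mgamma-HLH, a repressor gene that keeps neuroblasts in their state, was at 588 against 1491 CPM in the female and at 449.6 against 1274 CPM in the male library. In the same list tap, spdo and E(spl)m6-BFM were higher. In the whole set 2 of 30 genes of that list were lower (E(spl)m5-HLH and Ocho) and 3 higher (cato, tap and E(spl)m6-BFM). Of the other lists 8 of 13 ribosome biogenesis genes were lower in elav/fne-rich cells and none in the whole set, and 8 of 16 RNA-binding regulators were higher, 5 of 16 in the whole set. The level of shep, whose protein helps remodel neurons, was 281 and 314 CPM in elav/fne-rich cells against 35.9 and 5.44 CPM. The mesoderm gene twi was also lower, at 17.2 against 161 CPM in the female and 8.44 against 81.7 CPM in the male library.

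Variation among the elav/fne-rich cells was described first along nerfin-1, by comparing the upper tertile of each library's cells by nerfin-1 level with the lower tertile (392 against 392 female and 88 against 88 male cells, with medians of 6568 and 10053 UMIs and of 3601.5 and 3753.5 UMIs). Of 3463 genes 51 were higher (1.47%) and 124 lower (3.58%) in the nerfin-1-high tertile in both libraries. In all elav/fne cells, where no cell of the lower tertile had a nerfin-1 UMI, 117 of 4259 genes (2.75%) were higher and 179 (4.2%) lower, and the lower ones were led by muscle-lineage genes such as HLH54F, tey, sls, Him, kirre and sing. Scaled by trimmed mean of M values (TMM), which moved the median of all genes by 0.15 (female) and 0.26 (male) on the log2 scale, that split was 180 higher and 108 lower. Within elav/fne-rich cells the higher genes included 4 of 8 motor neuron factors (Oli, eve, ftz and Lim3), while vvl of that list was lower. Oli was at 789.7 against 191 CPM among female and at 1045 against 385 CPM among male cells. Lim3, a LIM-homeodomain gene of ventrally projecting motor neurons, was at 29.8 against 9.14 CPM and at 39.0 against 13.8 CPM. Of 30 axon guidance genes 5 were higher (beat-Ia, side, caps, Ptp99A and otk), comm2 was lower and 24 were not called, with list medians of 0.38 (female) and 0.03 (male) on the log2 scale. The level of beat-Ia was 72.5 against 22.5 CPM and 96.1 against 33.0 CPM, and that of side 373 against 102 CPM and 239 against 74.3 CPM.

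Lower in the nerfin-1-high tertile were 12 of 29 proneural and Notch pathway genes, 4 of 6 sensory organ genes and 4 of 34 cell cycle genes, beside 3.58% of all genes. The homeobox gene ct, which selects the external sensory organ fate, was at 76.3 against 386 CPM in the female and at 20.8 against 176 CPM in the male library. The proneural gene ac was at 11.5 against 69.5 CPM and at 10.4 against 127 CPM. CycE was at 49.2 against 289 CPM in the female cells and at 62.4 against 198 CPM in the male cells, and mira at 189 against 482 CPM and 125 against 355 CPM. Ranked as above, the first of the lower genes was ab, a zinc-finger gene that shapes dendrites, at 64.2 against 397 CPM and 5.20 against 85.3 CPM. Of 15 neuroblast and precursor genes mira, Brd and CycE were lower and 12 were not called, and 30 of the 34 cell cycle genes were not called.

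Pairs of genes were then read in the elav/fne-rich cells, for 77 factors and pathway genes at 50 CPM or more in both libraries, by comparing cells with at least 2 UMIs of a first gene with cells that had none. Of 6004 ordered pairs measured 349 (5.81%) were at least 2-fold higher in both libraries, and 1.73% of the pairs at least 2-fold lower. The pairs named were chosen after their values were seen, and cells with 2 or more UMIs of a gene were mostly the deeper ones: for gsb the medians were 11773 against 7915 UMIs for female and 5371 against 4153 for male cells.

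Neighbouring genes of the gooseberry locus on chromosome 2R, gsb (25061964 to 25064643) and gsb-n (25040383 to 25052331), were high in the same cells. With gsb present in 248 female cells gsb-n was at 359 CPM, against 7.60 CPM in the 851 cells without it, a ratio of 47.2 (36.7 to 61.7), and in the male library at 514 against 25.6 CPM, a ratio of 20.03 (12.99 to 31.9). The dorsoventral patterning gene ind followed gsb-n, at 135 against 25.96 CPM and 213 against 45.1 CPM. Cells with tap were largely others: gsb was at 51.1 CPM in 359 tap-positive female cells against 208 CPM in 655 without it, and at 6.39 CPM (77 cells) against 339 CPM (144 cells) in the male library. For tap the medians were 11110 and 7573 UMIs for female and 5452 and 3460 UMIs for male cells.

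Hey and E(spl)m6-BFM, both in the Notch response, were high in the same cells, with E(spl)m6-BFM at 386 against 59.7 CPM in the 318 Hey-positive and 726 Hey-negative female cells and at 936 against 64.5 CPM in the 56 and 184 male cells. Other genes of the Notch complexes went together too: with E(spl)m4-BFM present in 412 female and 55 male cells, Tom was at 935 against 60.9 CPM and 1282 against 61.6 CPM, and Brd at 246 against 4.84 CPM and 222 against 6.28 CPM. Precursor genes went together as well, with klu at 342 against 73.1 CPM and CycE at 294 against 61.5 CPM in the 274 female cells with dpn, and klu and CycE both at 383 CPM against 105 and 74.7 CPM in 25 male cells.

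The sensory organ genes ct and cpo were higher in cells without Oli. In the 805 female cells with Oli ct was at 128 CPM against 685 CPM in 230 cells without it, and cpo, an RNA-binding protein gene of peripheral precursors, at 123 against 588 CPM. The male levels were 30.3 against 374 CPM for ct and 76.7 against 295 CPM for cpo, in 165 and 55 cells. Within the 185 female and 11 male cells with ct, the POU gene vvl was at 474 and 756 CPM, against 164 and 71.9 CPM in those without. Of neighbours in the Hox cluster, abd-A was at 152 against 29.7 CPM in 361 and 699 female cells with and without Ubx, and at 151 against 29.5 CPM in 45 and 198 male cells. The POU gene pdm2 was at 112 against 36.8 CPM with nub in the female and 118 against 39.8 CPM in the male library.

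**Figure D5:**
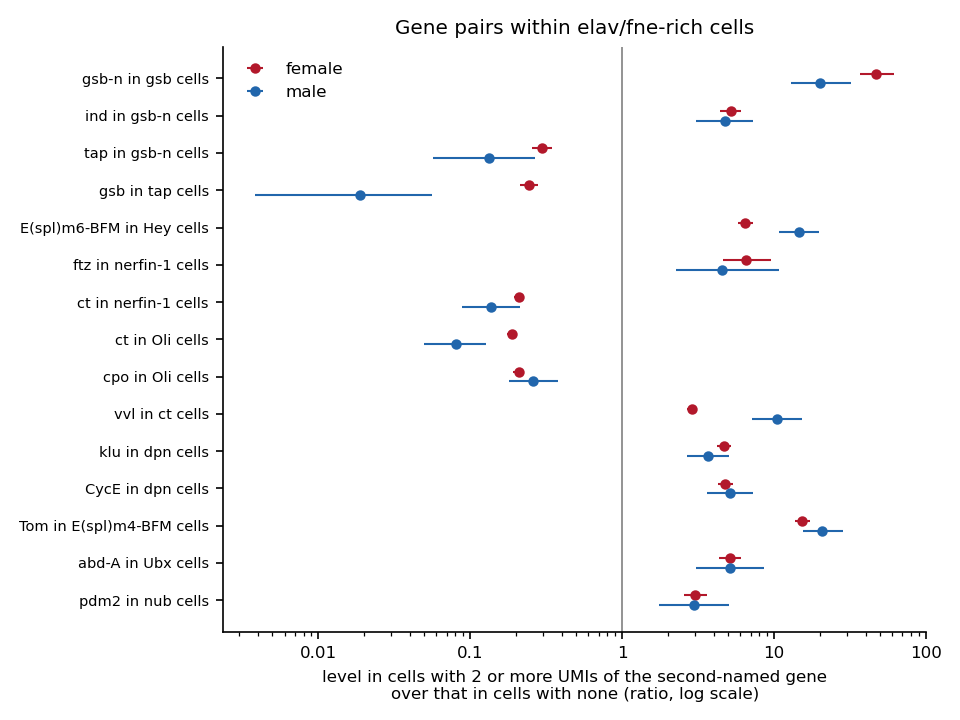
Ratio of a gene's level in elav/fne-rich cells with at least 2 UMIs of a second gene over its level in cells with none (x axis, log scale), for 15 pairs chosen after their values were seen, female in red and male in blue; bars are 95% intervals for counting error. Each pair lies on the same side of 1 in both libraries, with tap and the gooseberry genes, and ct with Oli or nerfin-1, below 1.

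Few cells carried transcripts of synaptic release and excitability. Of 10 such genes and glycolytic genes picked after their values were seen (nSyb, Syt1, cpx, para, Sh, Rdl, nAChRalpha1, nrv3, Gapdh2 and Tpi), 12 of 1176 female and 7 of 264 male elav/fne-rich cells had UMIs of at least 3. These cells held 314 of the 464 female UMIs of the 10 genes (67.7%) and 239 of the 263 male UMIs (90.9%). Because the same genes chose the cells, a large share was built in, and the percentages only describe the choice. The median depths of these cells, 6609.5 and 1751 UMIs, were below those of all elav/fne-rich cells, 8850.5 and 4243. Rbp6 and Ald did not choose these cells. They were named after their values were seen, so their levels only describe the cells. Rbp6, of the Musashi family of RNA-binding proteins, was at 395 CPM (62 UMIs) in the 12 female cells against 2.95 CPM in the other 1164, and at 2072 CPM (37 UMIs) in the 7 male cells against 3.11 CPM in the other 257. The nerfin-1 level was 338 against 499 CPM and 168 (3 UMIs) against 615 CPM. Ald, which encodes the glycolytic enzyme aldolase and so is of the same kind as Gapdh2 and Tpi, was at 510.1 against 30.02 CPM and at 5431 against 16.3 CPM. The male sum comes from 7 shallow cells, and the source of these cells was not tested.

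Between the libraries, 212 of 4554 genes (4.66%) were at least 2-fold higher in female and 90 (1.98%) in male elav/fne cells, and 259 and 62 with TMM scaling, which moved the median by 0.10. In elav/fne-rich cells the counts were 138 (3.25%) and 25 (0.588%) of 4250. The genes higher in female cells included CG12011, with a female level of 895.8 and a male level of 54.9 CPM in elav/fne cells, and Mef2, with 197 against 34.3 CPM, a ratio of 5.76 (4.57 to 7.35). In elav/fne-rich cells Mef2 was still at 54.5 against 12.3 CPM, and the muscle genes sls, at 53.8 against 1.53 CPM, and lmd, at 33.0 against 0.767 CPM, were among the 5 ranked first. Mesoderm markers thus moved with this difference in both sets, and their part in it was not tested. The female to male ratio of nerfin-1 was 0.459 (0.428 to 0.493) in all elav/fne cells, a call, and 0.817 (0.759 to 0.881) in elav/fne-rich cells, where the ratio was 1.14 (1.09 to 1.20) for scrt, 0.636 (0.594 to 0.683) for Oli and 0.868 (0.683 to 1.12) for beat-Ia. Other neuronal genes were called higher in the male elav/fne-rich cells, among them stai, of microtubule regulation, at a female level of 21.5 and a male level of 45.3 CPM, the POU gene acj6, at 11.7 and 25.3 CPM, and the synaptic gene cpx, at 6.90 and 26.1 CPM.

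With the 12 female and 7 male cells with synaptic genes left out, 12 of the 25 genes higher in male elav/fne-rich cells were still called, and in the whole set 81 of 90. Of the 25 genes nrv3, Gapdh2, Tpi and cpx had picked the cells left out, so the change in their calls follows from that choice. The ratio of stai was 0.476 with those cells and 0.503 without them. The sodium pump gene nrv3 had a female level of 6.36 and a male level of 46.0 CPM in elav/fne-rich cells, and levels of 0.620 (8 UMIs) and 3.89 CPM (5 UMIs) without those cells, where the ratio, 0.160 against 0.138, stayed past 2-fold at a level under the minimum. In all elav/fne cells its direction turned when each cell was thinned to 3000 UMIs, with 22 female and 3 male UMIs left. The glial fate gene gcm, also active in neuronal lineages, remained among the called genes, with a female level of 123 and a male level of 328 CPM. The 5 cells with most gcm held 12.0% of its female and 30.4% of its male UMIs. The gcm level followed the homeobox gene Dr in both libraries, at 259 CPM in 159 female cells with Dr against 75.7 CPM in 940 without it, and at 1198 CPM in 27 male cells against 125 CPM in 211. The ribosomal precursor transcript pre-rRNA:CR45847 ranked first among the genes higher in the male cells, at a female level of 2.99 and a male level of 83.6 CPM.

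Sex-specific regulators were read in the same cells. The dosage compensation RNA lncRNA:roX2, which helps to coat the male X chromosome, had a female level of 16.3 and a male level of 98.2 CPM in elav/fne-rich cells, a female to male ratio of 0.166, and 13.8% of female and 29.9% of male cells had a UMI at median depths of 8850.5 and 4243. The level of lncRNA:roX1 was 2016 against 3100 CPM, 0.65-fold (0.63 to 0.67), and it was also higher in elav/fne cells than in other somatic cells of both libraries, with a female level of 1435 against 501 CPM and a male level of 2760 against 868 CPM. The subunit gene msl-2 was at 14.6 against 27.6 CPM, 0.53-fold (0.37 to 0.78). The switch gene Sxl was at 523 against 368 CPM, 1.42-fold (1.30 to 1.57), and 3′ counts do not tell its female and male splice forms apart. Among genes further down the sex determination pathway, dsx had 6 female UMIs and fru 6, with none in the male cells, too few to compare. X-linked genes stood 0.15 above autosomal ones in the median female to male log2 ratio of elav/fne-rich cells (742 and 3472 genes), with 66.6% and 49.0% of genes above 0, and 0.16 above them in all elav/fne cells.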

How the data were processed

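Single cells of 3 droplet libraries (unsexed, female and male, 1 each) were measured with a 10x Genomics 3′ kit. The authors deposited raw UMI counts per gene and cell, made with Cell Ranger 3.0.1 (unsexed) and 3.1.0 (female and male), per the file headers, on BDGP6, per the submitters' processing notes; annotation and cell calling are not given in the sources used here. Coordinates and overlaps come from an Ensembl BDGP6 annotation.

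UMIs were summed per class of cells and library and divided by the class total, without mitochondrial genes (CPM). Genes were measured at 20 CPM and 20 summed UMIs (50 between the libraries), and called at 2-fold in both libraries. There is no test: with 1 library a group, only exact Poisson, Clopper-Pearson and conditional 95% ratio intervals are given, and UMIs in 1 cell are not independent. Log2 values are of CPM + 1. Cells with fewer than 1000 UMIs or 500 genes were left out. Doublets were scored with scanpy 1.11.5 and removed in an alternative only. The second set of deposited count tables of the same libraries, which are deeper and whose origin is not stated, served as an alternative. The genes named are the 25 highest and 5 lowest against other somatic cells, 10 and 5 against neuroblast-gene cells, 10 and 10 along nerfin-1, 5 and 5 between the libraries, ranked by the smaller of the library differences, and called or abundant genes of 24 lists (429 of 438 listed genes matched). Of 81 named genes, 24 overlap another gene on their strand and 34 on the other strand, where shared reads cannot be told apart. Members and lists were chosen with earlier results of these data known. The scripts were tested on simulated counts. Python 3.11.15, scipy 1.17.1 and edgeR 4.0.16 (TMM scaling in an alternative) were used.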

Additional observations from a re-analysis of the deposited data

Results flagged for a closer look

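For 2 genes the elav/fne cells lay on opposite sides of the other somatic cells in the libraries, each past 2-fold, and this difference between the libraries was not tested. CG31121, on chromosome 3R, was at 22.6 CPM in the female elav/fne cells against 11.3 CPM (log2 difference 0.94), and at 7.04 CPM (15 UMIs) against 20.3 CPM (39 UMIs) in the male library (log2 difference -1.40). Myo10A, an X-linked unconventional myosin gene, was at 41.0 against 19.7 CPM in the female library (log2 difference 1.02) and at 14.1 CPM (30 UMIs) against 29.6 CPM (57 UMIs) in the male library (log2 difference -1.02). Both fall in the group of genes that were higher in female than in male elav/fne cells, beside the mesoderm markers at 661 and 127 CPM, whose part in this was not tested.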

How the results depend on the processing

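Each value below is given against the reported 33.6% and 19.05% (shares, female and male), 244 higher and 239 lower (other somatic cells), 130 and 11 (neuroblast-gene cells), 117 and 179 (nerfin-1 tertiles), and 212 and 90 (female and male). With 2 summed UMIs of elav and fne in place of 3, the shares were 46.2% and 25.2% and 148 genes were higher in male cells. With 5 UMIs the shares were 21.6% and 13.4%, and 28 genes were lower than in neuroblast-gene cells. With cells thinned to 3000 UMIs the shares were 15.1% and 7.38%, the neuroblast comparison gave 49 lower and the male side 49. Without likely doublets the female share was 31.5%. TMM scaling gave 180 and 108 along nerfin-1. With no size filter the pairs of counts were 957 and 1227, 1770 and 50, 306 and 905, and 4130 and 1312. At 5 CPM 454 were lower than in other somatic cells, 214 higher than in neuroblast-gene cells, and 435 and 233 differed between libraries. At 50 CPM the counts were 159 and 106, 72 higher, 77 and 94, and 117 and 48. A 1.5-fold limit gave 704 and 487, 370 and 87, 293 and 550, and 448 and 357, and a 4-fold limit 64 and 118, 40 and 0, 33 and 20, and 50 and 8. The deeper count tables gave shares of 37.2% and 35.2%, and 89 and 37 genes between libraries.

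Settings added after the data were seen were the limit of 1000 CPM and a limit of 10 UMIs. The former gave shares of 13.1% and 13.2%, 461 and 573, 279 and 166, 51 higher along nerfin-1, and 138 and 25. The latter gave 13.4% and 7.37%, 405 and 438, 243 and 78, 45 and 94, and 59 higher in male cells. The X-linked excess stayed between 0.13 and 0.19 in the 8 settings that gave it. Of 1910 recomputed values of named genes 549 moved beyond their interval and 6 reversed, which were nrv3 between libraries after thinning (0.23, 22 against 3 UMIs), and along nerfin-1 in male cells HLH54F at 1000 CPM (1.85) and at 10 UMIs (2.19), and sls (2.19), Him (0.22, 8 against 8 UMIs) and sing (1.53) at 10 UMIs. The cause of these changes was not tested. No paired analysis was possible because each group is 1 library. The male elav/fne cells were fewer (380 against 3029) and shallower, with 2130133 summed UMIs against 38049441, which limits the male values.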

Other observations

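Further pairs of genes, chosen after their values were seen, were read in the elav/fne-rich cells in the same way as above. The glial and neuronal fate gene gcm was at 160 CPM in 579 female cells with mira against 39.6 CPM in 382 without it, and at 762.3 CPM in 54 male cells against 111 CPM in 133. In cells with the pair-rule and interneuron gene run, gcm was instead at 37.1 against 151 CPM (237 and 845 female cells) and at 53.4 against 381 CPM (38 and 200 male cells). The level of fne itself, which helped to choose the cells, was 375 CPM in female cells with pros against 1033 CPM in those without, and 361 against 1032 CPM for male cells, at median depths of 10814 and 5115.5 UMIs and of 5808 and 2472 UMIs. The early temporal gene hb and the sensory gene ct were largely in different cells, with ct at 117 against 384 CPM (450 and 562 female cells) and at 13.2 against 153.5 CPM (66 and 148 male cells).

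Posterior Hox genes extended the pattern of abd-A with Ubx. Abd-B was at 148 CPM in 203 female cells with abd-A against 65.1 CPM in 838 without it, and at 181 CPM in 17 male cells (18 UMIs) against 37.7 CPM in 228. Ubx was at 296 against 90.6 CPM in female cells with and without Antp, and at 365 against 74.1 CPM in male ones. Imp, which encodes an mRNA-binding protein of young neural lineages, had levels of 3416 and 3022 CPM in female and male elav/fne-rich cells, against 1103 and 856 CPM in other somatic cells.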
